A study of Mus musculus with 8 samples.

Results

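After culture with IL-1β and IFN-γ, most mouse β-cells carry many transcripts of the guanylate-binding proteins (Gbps), but some carry almost none. These β-cells with little Gbp response, called Gbp-low β-cells here, were 145 of the 2445 β-cells in the 4 libraries that received cytokines. Compared with the remaining 2300 β-cells of the same libraries, they held few transcripts of genes that interferon induces and almost none of Nos2, the inducible nitric oxide synthase. They held more transcripts of heat shock genes, above all Hspa1a and Hspa1b, and more of some genes of mature β-cells such as Ucn3, Mafa and Slc2a2. Of 32 genes of β-cell identity and function 15 were higher and 4 lower, where 10.4% of all genes tested were higher and 10.9% lower. When libraries were scaled to their total UMIs, 11 of the 32 were higher and 7 lower, with 387 and 2706 of all 10371 genes. In every library Mafa was higher in the members with many Hspa1a and Hspa1b transcripts than in the other members. In summed cells the NF-κB inhibitor Nfkbia was above its level in β-cells that received no cytokines, and above that of the remaining β-cells, in every library. Among β-cells of similar depth, 10000 to 20000 UMIs, neither difference passed. The log2 difference from the remaining cells was 0.21 there, against 0.86 in all cells. Those from cells without cytokines were 3.03 and, with NMMA, 3.0, against 3.55 and 3.41. In both replicate 2 libraries the median member held fewer transcripts of Nfkbia and Nfkbiz than the median remaining cell.

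Islets of male C57BL6/J mice aged 12 to 16 weeks were pooled from 10 mice for each of 2 replicates, and each pool was divided over 4 conditions of 18 h before 10x Genomics single-cell libraries were made. The conditions were untreated, NMMA alone (2 mM, an inhibitor of nitric oxide synthases), IL1B_IFNg (IL-1β at 10 U/mL and IFN-γ at 150 U/mL) and IL1B_IFNg_NMMA (the same cytokines with 2 mM NMMA). All groups share the isolation and culture, and a pool does not separate the mice in it, so the spread is between 2 pools. Total UMIs, the counted RNA molecules, were 50731370 and 32406984 in the untreated libraries (replicates 1 and 2), 48835419 and 29472399 with NMMA, 39056911 and 27235177 with cytokines, and 40609251 and 26549922 with cytokines and NMMA.

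Members were chosen from the counts. A barcode was kept with 200 to 5500 genes in replicate 1 or 200 to 6500 in replicate 2 and at most 10% mitochondrial UMIs, which left 10876 of 17426 barcodes in all 8 libraries. A β-cell had at least 10000 UMIs, with Ins1 and Ins2 at least 10% of its UMIs and at least 95% of the summed insulin, glucagon, somatostatin, pancreatic polypeptide and peptide YY transcripts. A Gbp-low β-cell had at most 2 UMIs of Gbp2, Gbp3, Gbp4, Gbp5 and Gbp7 together. The libraries without cytokines held 3254 β-cells by the same limits. Between 2 and 7 barcodes of a library recurred in another library of its replicate, of which 0 were members, and no doublet caller was used beyond the upper limit on genes and the limit on other hormones.

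Gbps are large GTPases of cell-autonomous immunity, and most cells make them only after exposure to interferon. IFN-γ binds the receptor chains Ifngr1 and Ifngr2, the kinases Jak1 and Jak2 activate transcription factors that bind the GAS element in promoters, while the factor Irf1 and relatives act at the ISRE. IL-1β signals through Il1r1, Il1rap and Myd88 to NF-κB, which induces its own inhibitor Nfkbia. Nos2 is a known target of both pathways in mouse islets. Heat shock genes such as Hspa1a are induced by the factor Hsf1 at heat shock elements (HSE) when proteins misfold.

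The promoters of 5 genes from the groups that differ below are shown because the results turn on genes that interferon induces and on heat shock genes. Sequences are RefSeq, GRCm38.p6, the 150 bases before the start site on the gene's strand, 5′ to 3′. Capitals mark GAS (TTCNNNGAA) and ISRE (GAAA and, after 2 bases, GAAA again, or TTTC and TTTC in the same way) matches in the first 3, and HSE (GAANNTTC or TTCNNGAA) matches in the last 2, each searched on both strands. The rule used Gbp7; Igtp is an immunity-related GTPase.
Gbp7, chr3:142530186-142530335, plus strand: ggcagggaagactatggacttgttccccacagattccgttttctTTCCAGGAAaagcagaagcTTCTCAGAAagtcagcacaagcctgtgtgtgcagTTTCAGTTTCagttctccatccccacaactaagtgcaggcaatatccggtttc
Igtp, chr11:58199406-58199555, plus strand: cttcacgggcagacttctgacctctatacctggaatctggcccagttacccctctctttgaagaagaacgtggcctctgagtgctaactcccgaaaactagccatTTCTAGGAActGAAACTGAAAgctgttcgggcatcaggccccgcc
Irf1, chr11:53769864-53770013, plus strand: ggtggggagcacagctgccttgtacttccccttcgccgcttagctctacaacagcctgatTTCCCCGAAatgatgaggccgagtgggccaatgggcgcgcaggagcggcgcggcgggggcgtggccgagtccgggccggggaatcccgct
Hspa1a, chr17:34972157-34972306, minus strand: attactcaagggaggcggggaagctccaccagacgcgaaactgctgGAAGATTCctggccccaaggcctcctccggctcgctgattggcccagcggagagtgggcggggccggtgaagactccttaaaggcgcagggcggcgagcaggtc
Hspb1, chr5:135887769-135887918, plus strand: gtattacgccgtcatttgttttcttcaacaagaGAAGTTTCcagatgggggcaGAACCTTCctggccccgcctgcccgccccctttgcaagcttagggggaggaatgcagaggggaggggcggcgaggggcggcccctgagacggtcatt

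In Igtp the GAS lies 45 to 37 and the ISRE 34 to 25 bases before the start, so the elements are almost adjacent. In Gbp7 the pair of GAS matches begins 106 and 87 bases before the start and the ISRE 53 bases before it, and a match to the HSE letters that overlaps the second GAS is not capitalised. Over the 250 bases before the start, 8.13% of the 27025 RefSeq genes held a GAS match, 3.46% an ISRE match and 14.5% an HSE match. Of the 10 immunity-related GTPases, 7 matched a promoter by symbol, and 5 of these held a GAS and 6 an ISRE. Of the 18 antigen presentation genes, 16 matched, with a GAS in 1 (6.25%, below the share of all genes) and an ISRE in 3. Of the 28 antiviral genes 23 matched, with a GAS in 6 and an ISRE in 8. Of the 27 heat shock genes, 22 matched, and 10 (45.5%) held an HSE and 0 a GAS or an ISRE. Of the 25 NF-κB targets, 18 matched, with a GAS in 6 and an ISRE in 0. The promoters of Hspa1a and Hspa1b were identical at 247 of 250 bases, and since these neighbouring genes are near-identical copies, the division of reads between them is uncertain. A match to these letters is a description of the sequence and does not show that a factor bound there.

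The share of β-cells that were Gbp-low differed between the replicates more than between the conditions. With cytokines it was 3.0% (32 of 1067 β-cells, exact Clopper-Pearson 95% interval 2.06 to 4.21%) in replicate 1 and 11.7% (50 of 427, 8.82 to 15.1%) in replicate 2. With cytokines and NMMA it was 3.93% (24 of 611, 2.53 to 5.79%) and 11.5% (39 of 340, 8.29 to 15.3%). These intervals cover counting error only. The means with and without NMMA differed by 0.345 percentage points (exact permutation test, two-sided, p = 1.0, where 0.33 is the smallest p that 2 against 2 libraries allow).

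Depth bears on the rule, since a cell with fewer UMIs passes a limit of 2 more easily. The mean of the library medians was 17974 UMIs in Gbp-low and 29598 in the remaining β-cells. With each β-cell thinned to 10000 UMIs, the shares in the order cytokines replicates 1 and 2 and cytokines with NMMA replicates 1 and 2, an order kept throughout, were 5.34, 16.6, 5.73 and 14.7%. Among β-cells of 10000 to 20000 UMIs alone they were 8.17, 41.7, 16.7 and 34.7%. The remaining cells had medians of 53, 51, 81 and 81 Gbp UMIs, and 78 of the 145 members had 0. In the libraries without cytokines, 97.6 to 99.0% of β-cells had at most 2.

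The rule set the Gbp levels of these cells, which are given without a test. Gbp5, Gbp7, Gbp3 and Gbp2 lie side by side on chromosome 3 (142493978 to 142638008, GRCm38) and Gbp4 on chromosome 5 (105115767 to 105139586). Gbp2 was at 10.7, 8.29, 6.27 and 15.3 CPM of the summed UMIs, without further scaling, in Gbp-low β-cells, 1188, 819, 1373 and 1413 CPM in the remaining β-cells, and 1.61 to 2.76 CPM without cytokines. Gbp7 was at 12.3, 5.52, 14.6 and 4.17 CPM against 150, 157, 352 and 467 CPM, and at 8.24 to 10.4 CPM without cytokines, so its level in the members overlapped that of β-cells that received no cytokines. The limit fell where cells were few. There were 78, 47 and 20 cells with 0, 1 and 2 Gbp UMIs inside it, 48 cells with 3 to 5 and 90 with 6 to 12 just outside it, and 2162 with more than 12. Per 10000 UMIs, the median of Hspa1a and Hspa1b together was 38.5, 15 and 33.5 in the cells with 0, 1 and 2 Gbp UMIs, 2 in those with 3 to 5, 1 in those with 6 to 12 and 0 above that.

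**Figure D1:**
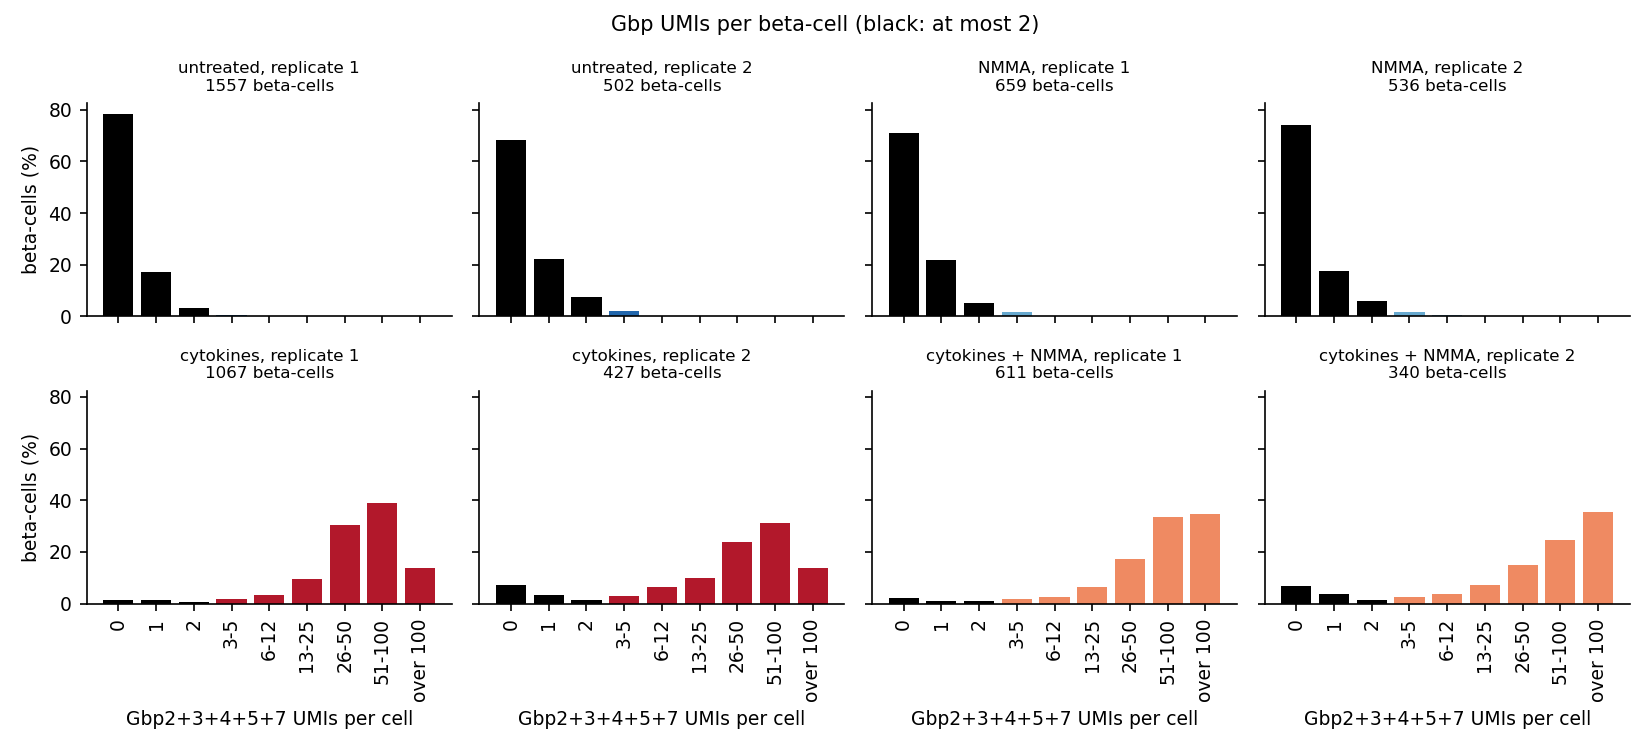
Share of β-cells (percent, vertical axis) by the number of Gbp2, Gbp3, Gbp4, Gbp5 and Gbp7 UMIs in a cell (horizontal axis), for the 4 libraries with cytokines and the 4 without. Cells with at most 2 Gbp UMIs made up 3.0 to 11.7% of β-cells with cytokines and 97.6 to 99.0% without, and no test is drawn since this count chose the cells.

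The β-cell label was checked against insulin, depth and markers of other cells. Insulin took a mean of the library medians of 43.1% of UMIs in Gbp-low and 34.7% in the remaining β-cells, higher in 3 of 4 libraries (exact sign-flip test, p = 0.25). Mitochondrial UMIs were 2.99 against 3.58%, lower in 4 of 4 libraries (exact sign-flip test, p = 0.13, the smallest that 4 libraries allow). At an equal 10000 UMIs the mean of the library medians was 1978 genes in members and 2467 in remaining cells. The lowest member held 625, 316, 561 and 698 genes and the lowest remaining cell 1410, 1113, 1403 and 1279. Insulin reached 76.0, 85.8, 81.0 and 79.8% of UMIs in the highest member and 61.2, 70.0, 61.2 and 64.0% in the highest remaining cell. Ribosomal protein transcripts took 11.1 and 9.27% of UMIs, higher in 4 of 4 libraries. Genes of RNA quality and nuclear RNA summed to 11740, 12788, 11282 and 14128 CPM in members, scaled as in the next paragraph. The remaining cells held 11310, 11344, 8252 and 9250 CPM, less in each library. Depth, genes per cell, ribosomal share and these RNA quality genes thus moved with the group. Values at matched depth are given below for some genes. The part of genes per cell, ribosomal share and RNA quality genes was not tested.

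Macrophage, endothelial, mesenchymal and acinar markers were mostly at or near 0, and ductal and endocrine markers were not. Of 11 macrophage markers, 7 to 9 were at 0 UMIs in each library of Gbp-low β-cells, among them Adgre1, Ptprc, Lyz2, Tyrobp and Csf1r, and the summed level in TMM-scaled CPM (edgeR's trimmed mean scaling between sums, used for all levels from here on) was 45.9, 38, 27.6 and 29.4 CPM against 128, 75.7, 172 and 86.5 CPM in the remaining β-cells, with C1qa or Cd68 the most abundant. Of 8 endothelial markers 6 to 8 were at 0, and the 8 mesenchymal markers summed to 0, 1.09, 0 and 0 CPM. Acinar markers summed to 3.40, 0, 22.6 and 0 CPM in members and to 57.2, 561, 24.6 and 0.439 CPM in the remaining cells. Ductal markers summed to 1247, 768, 1304 and 911 CPM in members and 1141, 1009, 880 and 735 CPM in the remaining cells, led by the keratin Krt18, with Cftr and Sox9 at 0 in members. The 8 α-cell markers summed to 320, 399, 384 and 508 CPM in members and 127, 478, 199 and 295 CPM in the remaining cells, higher in 3 of 4 libraries, and to 392 to 806 CPM in β-cells without cytokines. Of them 3 were at 0 in members, among them Irx1 and Irx2, and Ttr, the thyroid hormone carrier transthyretin, was the most abundant or second to glucagon. Ttr was at 214, 207, 224 and 193 CPM in members, 32.4 to 45 CPM in the remaining β-cells and 151 to 178 CPM in β-cells without cytokines. δ-cell markers summed to 10.2, 86.8, 22.6 and 27.6 CPM in members and 44.2, 80.1, 30.8 and 36.0 CPM in the remaining cells. PP-cell markers summed to 28.9, 142, 95.4 and 149 CPM against 90, 261, 111 and 181 CPM. The part of these markers in the results below was not tested.

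For the comparison with the remaining β-cells of the same library, counts were summed over cells and 10371 genes were tested with edgeR's quasi-likelihood test. At an adjusted p under 0.05, 1077 genes were higher and 1132 lower in Gbp-low β-cells, 21.3% of those tested (10.4% higher, 10.9% lower). The median difference of all genes was −0.06 on the log2 scale with TMM scaling and −0.48 with scaling to the total UMIs, which moved the share of calls that were higher from 48.8 to 12.5%. Values below use TMM scaling unless a sentence names the other, and levels of genes are of the summed cells. Fewer cells with transcripts and fewer transcripts per cell cannot be told apart in such sums.

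Genes that interferon induces were lower in Gbp-low β-cells almost without exception. They share their stimulus with the genes that chose the cells, so their direction is not independent of the rule. All 13 tested genes of IFN-γ signalling and its factors were lower (median −2.54), as were all 10 immunity-related GTPases (median −4.94) and all 18 antigen presentation genes (median −2.24). Of 27 antiviral interferon-stimulated genes, 26 were lower (median −3.34), and Rsad2, an antiviral enzyme named after its value was seen, was at −1.74 and did not pass. The counts of the first 3 lists were the same with scaling to the totals.

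Igtp (chromosome 11, 58199556 to 58207591, plus strand) was at 15.3, 5.43, 12.6 and 11 CPM in Gbp-low β-cells, 240, 175, 495 and 453 CPM in the remaining β-cells and 2.54 to 3.64 CPM without cytokines. It lay between the groups, and the difference from the remaining cells was −4.82 ± 0.23 (edgeR adjusted p = 3.76e-15).

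B2m, the light chain of MHC class I, was at 369, 300, 319 and 313 CPM in Gbp-low, 1536, 1126, 1694 and 1326 CPM in remaining and 181 to 247 CPM in β-cells without cytokines (chosen after its values were seen). Irf1, the factor that acts at the ISRE, was at 123, 34.7, 55.3 and 99.4 CPM in members, 162, 176, 269 and 256 CPM in the remaining cells and 17.6 to 19.3 CPM without cytokines. Every value of Irf1 in members lay above the cells without cytokines and below the remaining cells, and the difference from the latter was −1.45 ± 0.30 (edgeR adjusted p = 0.00604). Without replicate 2 of cytokines with NMMA the call of Irf1 was lost (−1.52, edgeR adjusted p = 0.0515).

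**Figure D2:**
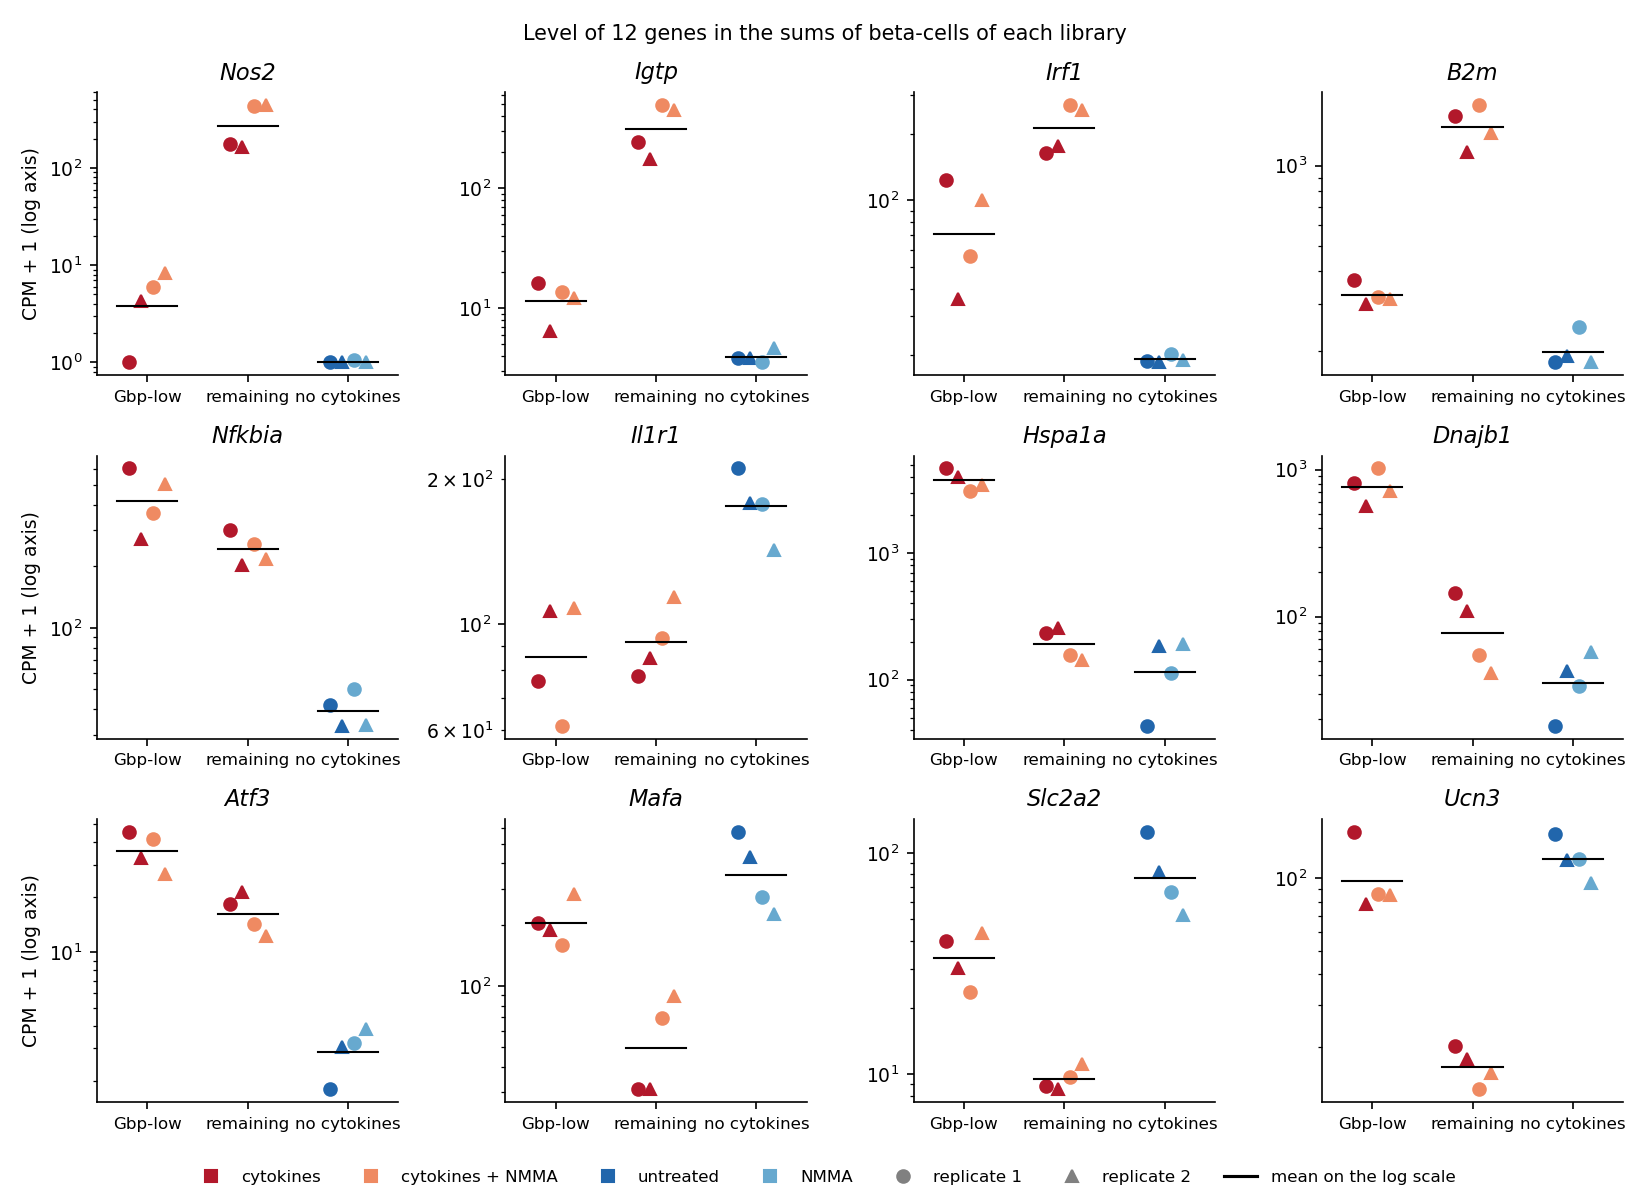
TMM-scaled CPM plus 1 (vertical axis, log scale) of 12 genes in summed Gbp-low β-cells, remaining β-cells and β-cells without cytokines, each point a library (circles replicate 1, triangles replicate 2) and each line the mean on the log scale. Ucn3 in Gbp-low β-cells (77.1 to 155 CPM) overlapped the β-cells without cytokines, Nfkbia (271 to 601 CPM) did not, and Hspa1a (3087 to 4665 CPM) stood above both other groups.

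Genes downstream of IL-1β and NF-κB were divided. Of 21 tested NF-κB targets, 14 were lower and 3 higher (median −1.38), and with scaling to the totals 16 were lower and 2 higher. Nos2 (chromosome 11, 78920787 to 78960254, plus strand) was at 0, 3.26, 5.02 and 7.36 CPM in Gbp-low β-cells, 176, 163, 429 and 445 CPM in the remaining cells, and at 0 to 0.0478 CPM without cytokines. Members and remaining cells did not overlap, and the difference between them was −6.16 ± 0.28 (edgeR adjusted p = 1.07e-15). In pooled UMIs, 9 of Nos2 were found in members and 20602 in the remaining cells, 98.8-fold lower per UMI. At 10000 UMIs a cell, Nos2 was seen in 0 of 32, 2 of 50, 1 of 24 and 1 of 39 members, where 0 of 32 allows a share of cells with a UMI of up to 9.38% (3 counts, with an exact 95% upper limit of 10.9%), and in a mean of 58.8% of remaining cells.

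Icam1, an adhesion molecule for leukocytes, was at 13.6, 1.09, 5.02 and 1.84 CPM against 234, 205, 102 and 70.0 CPM (−4.97, edgeR adjusted p = 2.16e-12). Sod2, the mitochondrial superoxide dismutase, was at 153, 110, 126 and 101.2 CPM in members and 522 to 865 CPM in the remaining cells (−2.50, edgeR adjusted p = 2.01e-12). Defb1, an antimicrobial peptide, was at 86.5 to 124 against 365 to 823 CPM (−2.40, edgeR adjusted p = 6.83e-12). Members exceeded the β-cells without cytokines (20 to 37.9 CPM) in each library for Defb1.

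The 3 NF-κB targets that were higher were Nfkbia, Nfkbiz and Rel, named after their values were seen. Nfkbia and Nfkbiz encode IκB proteins that restrain or modulate NF-κB, and Rel encodes an NF-κB subunit. Nfkbia was at 601, 271, 362 and 506 CPM in Gbp-low β-cells, 300, 202, 257 and 216 CPM in the remaining cells and 32.2 to 49.1 CPM without cytokines, so each member sum exceeded the remaining cells of its own library. The difference was 0.86 ± 0.16 (edgeR adjusted p = 0.000184), and among β-cells of 10000 to 20000 UMIs it did not pass (0.21, edgeR adjusted p = 0.586). Nfkbiz was at 93.3 to 171 against 60.5 to 76.0 CPM (0.81, edgeR adjusted p = 0.000985), a call that was lost with scaling to the totals (0.38, adjusted p = 0.12), and its value among β-cells of 10000 to 20000 UMIs was −0.06 (adjusted p = 0.881). Rel differed by 1.43 (edgeR adjusted p = 0.00124), and by 1.02 among β-cells of 10000 to 20000 UMIs (edgeR adjusted p = 0.0783), so none of the 3 passed at that depth. Per cell at 10000 UMIs, the median of Nfkbia and Nfkbiz together was 2.75 in members and 2.5 in remaining cells. Members were higher in both replicate 1 libraries and lower in both replicate 2 libraries (exact sign-flip test, p = 1.0). The median cell thus followed the sums in replicate 1 and not in replicate 2.

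Of 20 tested receptors and proximal signalling components, 0 were higher and 3 lower (median −0.27) with TMM scaling. Among all genes tested 10.4% were higher and 10.9% lower, so the count of 3 is near that share. Scaling to the totals made 10 of the 20 lower, where 2706 of all 10371 genes were lower. Shares of cells with a transcript were lower for Ifngr1, Ifngr2, Jak1 and Jak2 in 4 of 4 libraries. Il1r1, the IL-1 receptor, was at 74.9, 105, 60.3 and 107 CPM in members and 76.7, 84.0, 92.3 and 112 CPM in the remaining cells, which overlapped, with a difference of 0.00 ± 0.18 (edgeR adjusted p = 0.988). Both groups were below the 141 to 210 CPM of β-cells without cytokines. Ifngr1 was at 8.51 to 20.1 against 14.0 to 17.0 CPM (−0.07, edgeR adjusted p = 0.895) and Jak1 at 61.3 to 98.0 against 71.6 to 106 CPM (−0.01, edgeR adjusted p = 0.985), while Jak2 was at −0.38 (edgeR adjusted p = 0.364) and, with scaling to the totals, at −0.79 (adjusted p = 0.0476). Il1rap had 9 UMIs in members, too few for a statement. Ifngr2 was lower, at 7.53 to 9.20 against 24.8 to 33.6 CPM (−1.64, edgeR adjusted p = 0.000235), with 4.15 to 7.89 CPM in β-cells without cytokines. The other genes that were lower were Myd88, the adaptor of the IL-1 receptor (−1.43, edgeR adjusted p = 0.0043), and Ikbkg, a subunit of the IκB kinase (−1.28, edgeR adjusted p = 0.00309).

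Most heat shock genes were higher in Gbp-low β-cells. This list is not independent evidence, because the study described heat shock in non-responding cells from the same samples. Of 26 tested, 23 were higher and 1 lower (median 1.42, against −0.06 for all genes tested). With scaling to the totals 19 were higher and 2 lower, and among β-cells of 10000 to 20000 UMIs 20 of 24 were higher and 0 lower. Hspa1a (chromosome 17, 34969190 to 34972156, minus strand), an inducible Hsp70 chaperone, was at 4665, 3983, 3087 and 3476 CPM in members, 230, 254, 155 and 143 CPM in the remaining cells, and 42.2, 182, 113 and 190 CPM in the untreated and NMMA libraries. Members stood above all other sums, with a difference of 4.37 ± 0.18 from the remaining cells (edgeR adjusted p = 1.91e-16). Hspa1b was at 1683, 3188, 1464 and 2683 CPM against 74.7 to 189 CPM (4.22, edgeR adjusted p = 3.72e-16).

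Of the co-chaperones, Dnajb1 was at 813, 562, 1020 and 714 CPM in members and 143, 107, 53.8 and 40.7 CPM in the remaining cells (3.37 ± 0.45, edgeR adjusted p = 0.00706). Dnaja1, another co-chaperone, differed by 2.63, and the small heat shock protein Hspb1 was at 458, 890, 211 and 532 CPM against 17.7 to 137 CPM (3.31, edgeR adjusted p = 9.95e-14). Hspa8, the constitutive Hsc70, was at 4097, 2236, 3767 and 2199 CPM against 3159, 1720, 966 and 775 CPM, which overlapped without regard to library. Its difference within libraries was 1.12 ± 0.24 (edgeR adjusted p = 0.00364) and was not called with scaling to the totals (0.69, adjusted p = 0.115) or without replicate 2 of cytokines with NMMA (0.95, adjusted p = 0.0757). The gene that was lower was Hspa4, an Hsp110 relative named after its value was seen (−0.62, edgeR adjusted p = 0.0278).

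**Figure D3:**
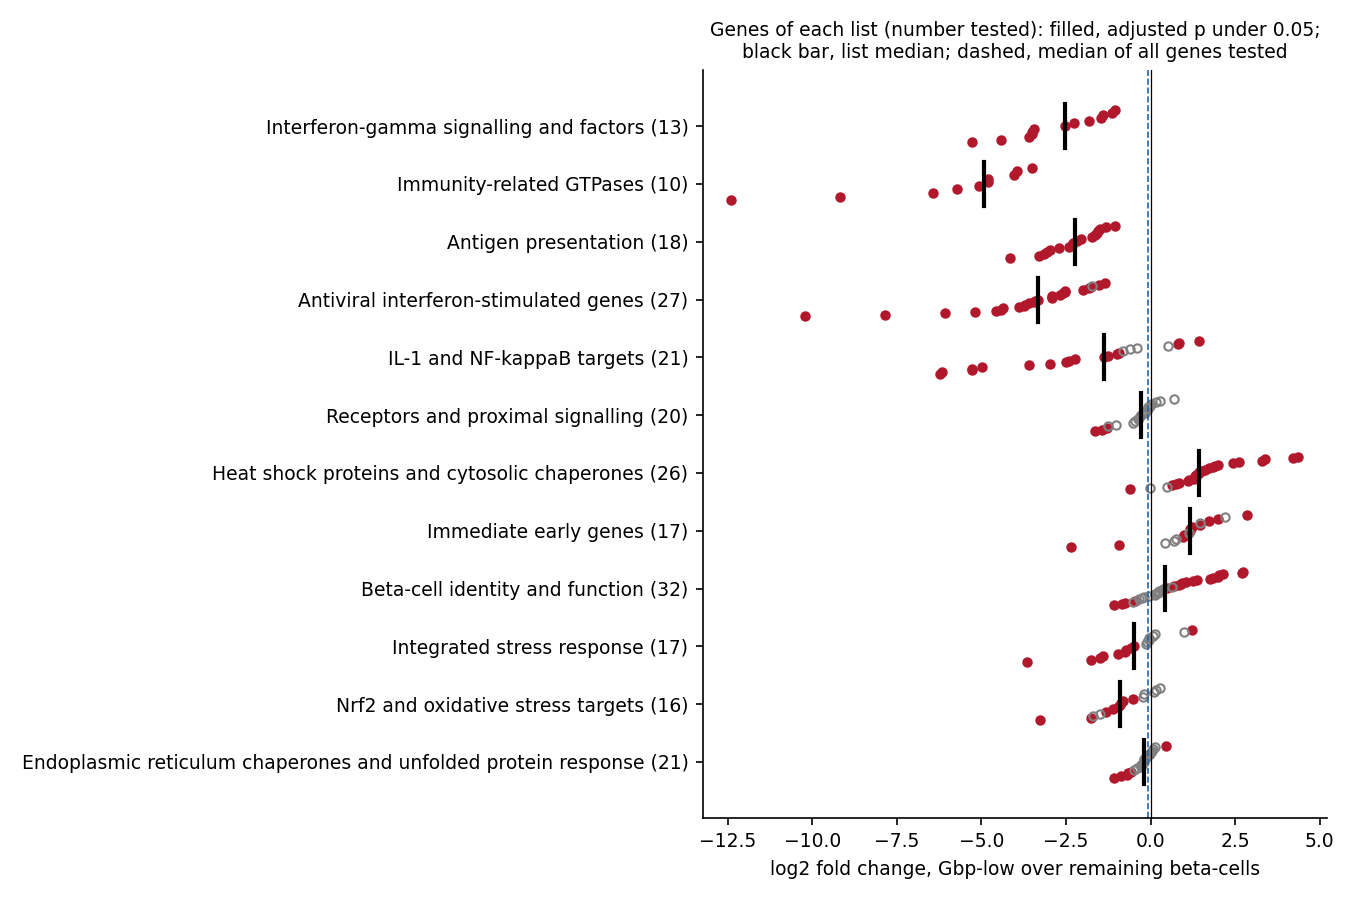
Log2 difference between Gbp-low and remaining β-cells of the same library (horizontal axis) for the tested genes of 12 lists (rows), filled points with an adjusted p under 0.05, bars the list medians and the dashed line the median of all 10371 genes (−0.06). With TMM scaling the medians of the interferon lists lie to the left of the line and that of the heat shock genes to its right (1.42), while β-cell identity genes spread to both sides (median 0.44, and 0.01 with scaling to the totals).

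High Hspa1 expression was a property of most but not all members. A β-cell with at least 10 UMIs of Hspa1a and Hspa1b per 10000 is called Hspa1-high here. The Hspa1-high share was 59.4, 70.0, 50 and 64.1% of members, 10.4, 10.9, 7.16 and 8.64% of the remaining β-cells, 1.28 and 11.6% of untreated and 4.10 and 13.2% of NMMA β-cells. Taken the other way, 15.0, 46.1, 22.2 and 49.0% of the Hspa1-high β-cells with cytokines were Gbp-low, against 1.38, 4.27, 2.15 and 4.84% of other β-cells. The median Hspa1-high β-cell of these libraries had 48, 4, 21.5 and 3 Gbp UMIs, in both replicate 2 libraries just above the limit of 2 and far below the 51 and 81 of their remaining cells.

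**Figure D4:**
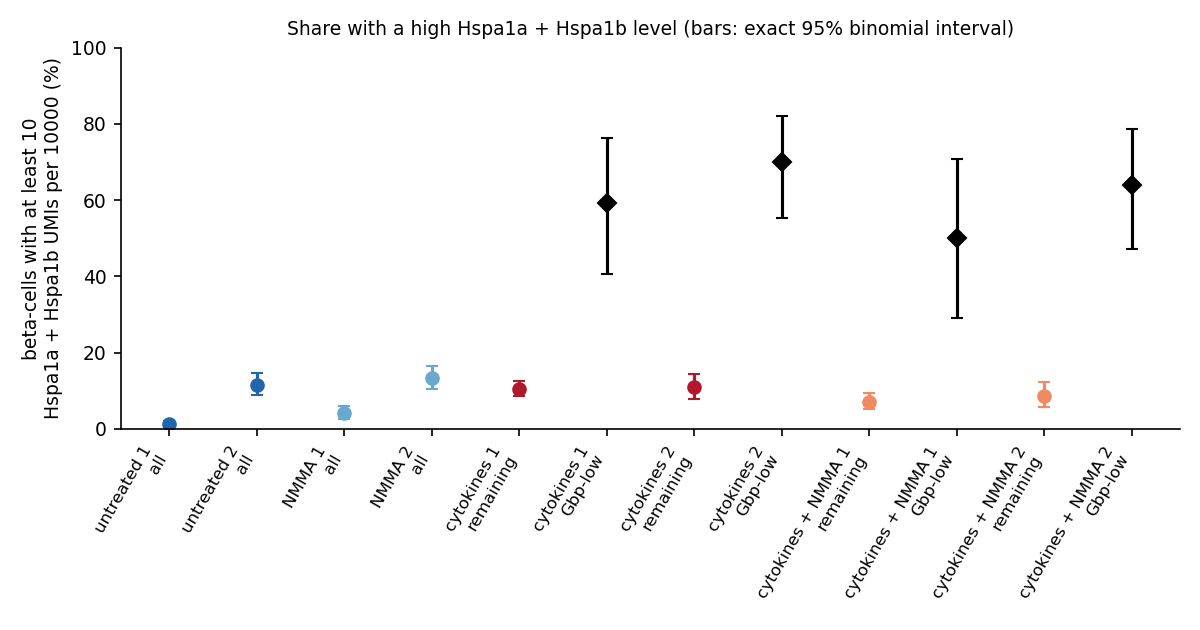
Percent of β-cells with at least 10 Hspa1a and Hspa1b UMIs per 10000 (vertical axis) in Gbp-low and remaining β-cells of the 4 libraries with cytokines and in all β-cells of the 4 without, with exact 95% intervals that cover counting error only. Gbp-low β-cells lie at 50 to 70.0% and all other groups at 13.2% or less.

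Immediate early genes, which cells transcribe within minutes of a stimulus, also differed. Of 17 tested, 9 were higher and 2 lower (median 1.15), and with scaling to the totals 4 were higher and 2 lower. Jun, a subunit of AP-1, was at 381, 698, 1296 and 863 CPM in members and 226, 236, 234 and 233 CPM in the remaining cells (1.74, edgeR adjusted p = 2.83e-06), and 105 to 171 CPM without cytokines. Ier3, a survival gene that NF-κB also induces, was lower (−2.34). Of 17 genes of the integrated stress response, which slows translation under stress, 1 was higher and 9 lower (median −0.50), and with scaling to the totals 1 and 11. The gene that was higher was Atf3, a stress-induced repressor, at 44.2, 31.5, 40.2 and 25.8 CPM against 17.4, 20.2, 13.3 and 11.2 CPM (1.23, edgeR adjusted p = 0.000466), with 0.799 to 2.82 CPM without cytokines. Among β-cells of 10000 to 20000 UMIs the difference of Atf3 did not pass (0.56, edgeR adjusted p = 0.301), nor with all cells thinned to 10000 UMIs (0.62, edgeR adjusted p = 0.142). In the thinned fit members were chosen again, as 57, 71, 35 and 50 cells, so depth and membership changed together.

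Ddit3, which encodes CHOP, was at 322, 365, 261 and 293 CPM in members and 575, 482, 232 and 189 CPM in the remaining cells, which overlapped (−0.06, edgeR adjusted p = 0.856, and −0.48, adjusted p = 0.0148, with scaling to the totals). Without cytokines it was at 53 to 119 CPM. Of 16 Nrf2 targets, genes of the antioxidant response, 0 were higher and 9 lower (median −0.89). Hmox1, heme oxygenase, was at 52.7 to 100 against 98.5 to 489 CPM and did not pass (−1.50, edgeR adjusted p = 0.123), but passed with scaling to the totals (−1.91, adjusted p = 0.0136), with DESeq2 (−1.47, adjusted p = 0.0011), with thinned counts (−1.26, adjusted p = 1.57e-05) and when any library but replicate 1 of cytokines with NMMA was left out, but not with the replicate block (−1.51, adjusted p = 0.0707) or at 10000 to 20000 UMIs (−1.75, adjusted p = 0.0756). Of 21 chaperones and unfolded protein response genes of the endoplasmic reticulum, 1 was higher and 5 lower (median −0.21), and 0 were higher and 17 lower with scaling to the totals. Of 12 p53 targets 1 was higher and 5 lower (median −0.04), and of 81 ribosomal protein genes 77 were higher and 0 lower (median 0.67), of which 34 were higher and 1 lower with scaling to the totals.

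Genes of β-cell identity and function were more often higher than lower. Of 32 tested, 15 were higher and 4 lower (median 0.44). With scaling to the totals 11 were higher and 7 lower (median 0.01), where 387 of all 10371 genes were higher and 2706 lower. The change of scaling moved the median of all genes from −0.06 to −0.48, so the change in these counts is not particular to this list. The genes that were lower were Foxa2, Chgb, Syt7 and Abcc8, named after their values were seen, which encode a transcription factor, a granule protein, a calcium sensor of secretion and a subunit of the KATP channel.

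Ucn3 (chromosome 13, 3940688 to 3945349, minus strand), a peptide hormone of mature β-cells, was at 155, 77.1, 85.4 and 84.6 CPM in Gbp-low β-cells, 19.3, 16.9, 12.4 and 14.6 CPM in the remaining cells, and 94.5 to 152 CPM without cytokines. The members overlapped the β-cells without cytokines, and the difference from the remaining cells was 2.70 (edgeR adjusted p = 2.81e-11). Mafa (chromosome 15, 75745490 to 75748228, minus strand), an activator of the insulin gene, was at 202, 188, 158 and 283 CPM against 30.1, 30.0, 68.3 and 87.8 CPM, and at 570, 429, 271 and 224 CPM in the untreated and NMMA libraries. The difference was 2.16 ± 0.22 (edgeR adjusted p = 2.26e-06) and 1.73 with scaling to the totals. In the members that were not Hspa1-high, Mafa was at 26.9, 96.3, 80.3 and 141 CPM, above the remaining cells of the same library in 3 of 4 libraries, and in 2 of 4 with scaling to the totals. Slc2a2 (chromosome 3, 28697903 to 28731359, plus strand), the glucose transporter GLUT2, was at 39.1, 29.3, 22.6 and 42.3 CPM against 7.56 to 10.2 CPM (2.03), and at 51.3 to 123 CPM without cytokines, above every member sum. Among β-cells of 10000 to 20000 UMIs the differences were 3.07 for Ucn3, 2.82 for Mafa, 2.19 for Slc2a2 and 3.81 for Hspa1a, each past the threshold (the largest edgeR adjusted p, 0.0457, was that of Hspa1a).

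Pdx1, a master regulator of the pancreas, was at 51 to 67.8 against 15.7 to 41.9 CPM (1.25, edgeR adjusted p = 0.000119). Trpm5, a calcium-activated cation channel, was at 226, 198, 141 and 219 CPM against 22.2 to 39.5 CPM (2.72), and in each library exceeded also the 47.6 to 94.0 CPM of β-cells without cytokines. G6pc2, the islet glucose-6-phosphatase, did not pass (−0.35, edgeR adjusted p = 0.785), and its direction differed between conditions as given below.

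Beyond the lists, genes among the largest fitted increases that held in all 4 libraries included Ccnb1ip1, a meiotic recombination factor, at 8.51, 14.1, 12.6 and 27.6 CPM against 0.181, 1.0, 0.251 and 1.76 CPM (4.48), which rests on 38 UMIs in members. They also included T2 (3.50) and Phlda1 (2.99), a pleckstrin homology gene, at 23.8 to 87.9 against 5.92 to 9.23 CPM. The others were Lingo1 (3.36, 10 UMIs), Pcdh15 (2.98) and the activity-regulated factor Npas4 (2.97, 22 UMIs).

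The 10 genes with the largest fitted decreases were all at 0 UMIs in members. A fitted value over 0 counts is no measured size, so these genes are not ranked, and 3 counts over the 4 sums give a bound for each. F830016B08Rik, an interferon-inducible GTPase, was at least 78.0-fold lower, the iron-binding Ltf at least 39.5-fold and Acod1, which makes itaconate, at least 31.3-fold. Gm4951 was at least 23.3-fold lower, the protease inhibitor Slpi 22.7-fold, the RNA sensor gene Dhx58 18.7-fold, Trim12a 14.1-fold, Ly6a 14.0-fold, Gm16685 13.9-fold and Fga, a fibrinogen chain, 11.5-fold.

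Gbp-low β-cells were also compared with β-cells that received no cytokines. With cytokines alone, 821 genes were higher and 678 lower than in untreated β-cells, 12.8% of 11753 tested (6.99% higher, 5.77% lower, with 54.8% of calls higher, 16.3% with scaling to the totals). With the replicate as a block the numbers were 1333 and 1093. With cytokines and NMMA, 687 were higher and 579 lower than with NMMA alone, 10.8% (5.85% higher, 4.93% lower, with 54.3% of calls higher, 10.4% with scaling to the totals). The remaining β-cells against the same controls had 46.6% (24.0% higher, 22.7% lower) and 18.2% (10.6% higher, 7.6% lower) of 12634 genes called. Gbp-low and remaining β-cells share these controls, so their values are given side by side only. With any library left out, the calls of Defb1 and Atf3 held in both comparisons. Those of Igtp, Icam1, Socs1, Iigp1, Ccl2, Cxcl10, Fas, Il1r1, Hspa1a, Dnajb1, Ddit3, Mafa and Slc2a2 named below were lost without at least 1 library in at least 1 comparison, in fits that also have fewer libraries. For the genes named below, the replicate block is given where it changes a call in these comparisons. The counts of lists below all come from fits without this block, which do not use the pairing of the pools.

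Few genes of IFN-γ signalling and antiviral defence passed against control β-cells. Of 11 tested IFN-γ signalling genes, 1 rose and 0 fell against untreated cells (median 0.30, with −0.10 for all genes), where 14 of 14 rose in the remaining cells. The gene was Socs1, an inhibitor of the Jak kinases (2.70, edgeR adjusted p = 0.0298, 8 UMIs). With NMMA 0 of 11 rose, against 14 of 14. Of 23 antiviral genes 0 rose and 2 fell in either comparison, against 25 and 26 of 27 that rose in the remaining cells. Member sums held 478630 to 1086212 UMIs and remaining sums 9849145 to 27716593, so the counts differ in precision. In simulated data the 2 comparisons of members found 23 and 20 of 100 changes of 2-fold. A gene that did not pass is thus not shown to be unchanged.

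Some interferon genes passed the test at low levels. Of 5 immunity-related GTPases tested, 2 rose in each comparison. Igtp rose by 1.76 (edgeR adjusted p = 0.0362) and 1.92 (edgeR adjusted p = 0.0413), calls that were lost with scaling to the totals, and Iigp1 by 4.84 (edgeR adjusted p = 0.0012) and 7.21 (edgeR adjusted p = 7.42e-05) on the log2 scale, from near 0 to 6.51 to 20.1 CPM. In members these values rest on 14 and 11 UMIs of Igtp and 10 and 16 of Iigp1. The remaining cells of the same libraries held Igtp at 175 to 495 CPM and Iigp1 at 228 to 1329 CPM, and the part of free RNA in such low levels, those of Ccl2 included, was not tested. Of 18 antigen presentation genes 5 rose in each, where scaling to the totals gave 2 that rose and 1 that fell, and with NMMA 0 and 3. Irf1 was at 2.07 (edgeR adjusted p = 0.0522) and 2.08 (edgeR adjusted p = 0.0661) and did not pass in either, but passed in both with the replicate block (2.01, adjusted p = 6.15e-06, and 2.11, adjusted p = 2.64e-05).

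Some NF-κB targets rose in Gbp-low β-cells. Of 19 tested, 10 rose and 0 fell against untreated cells (median 1.78) and 8 rose and 0 fell with NMMA, where 22 and 20 of 22 rose in the remaining cells. Nfkbia rose by 3.55 (edgeR adjusted p = 0.0017) and 3.41 (edgeR adjusted p = 0.00215). Among β-cells of 10000 to 20000 UMIs its values were 3.03 (edgeR adjusted p = 0.164) and 3.0 (edgeR adjusted p = 0.175), which did not pass. Nfkbiz rose by 2.97 (edgeR adjusted p = 4.92e-06) and 2.66 (edgeR adjusted p = 1.77e-05). It passed at that depth too, at 2.22 (edgeR adjusted p = 0.00231) and 1.54 (edgeR adjusted p = 0.0199). Rel was there at 1.90 (edgeR adjusted p = 0.181) and 2.36 (edgeR adjusted p = 0.0482). The call of Rel in all cells was lost without at least 1 library in each comparison. Icam1 rose by 3.91 without NMMA (edgeR adjusted p = 0.0357), and with NMMA it passed with the replicate block alone (4.45, adjusted p = 0.0467), on 9 and 3 UMIs in members. Sod2 did not pass without NMMA (0.54, edgeR adjusted p = 0.107), but did with the block (0.52, adjusted p = 0.0115). Defb1 rose by 2.42 (edgeR adjusted p = 4.92e-06) and 1.24 (edgeR adjusted p = 0.00134).

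Among chemokines, of which 3 of 6 rose and 0 fell in each comparison, Ccl2, which attracts monocytes, rose by 5.20 (edgeR adjusted p = 0.00603) and 4.95 (edgeR adjusted p = 0.0185), to 2.51 to 7.36 CPM, which rests on 7 and 5 UMIs in members. Cxcl10, which attracts T cells, rose by 5.66 (edgeR adjusted p = 0.0213) and 6.45 (edgeR adjusted p = 0.0372), with 130 and 48 UMIs. The death receptor gene Fas rose by 5.80 (edgeR adjusted p = 0.000519) and 5.25 (edgeR adjusted p = 0.00544), to 3.68 to 10.9 CPM (15 and 6 UMIs) from 0.0957 to 0.235 CPM, and against the remaining cells its difference did not pass (−0.81, edgeR adjusted p = 0.0904). Il1r1 fell by 1.10 (edgeR adjusted p = 0.00975) and by 0.91 (edgeR adjusted p = 0.0366).

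Most heat shock genes rose in both comparisons. Against untreated cells 18 of 26 rose and 0 fell (median 2.06), and with NMMA 16 rose and 1 fell (median 1.75). In the remaining cells 17 of 27 rose and 0 fell without NMMA, and 1 rose and 1 fell with NMMA (median −0.10). Dnajb1 rose by 4.53 (edgeR adjusted p = 0.012) and 4.26 (edgeR adjusted p = 0.016), the latter a call that was lost with the replicate block (4.31, adjusted p = 0.0583). Hspa1a rose by 5.26 (edgeR adjusted p = 0.0358) and was at 4.43 with NMMA, which did not pass (edgeR adjusted p = 0.0553), nor did Hspb1 against untreated cells (4.27, edgeR adjusted p = 0.171), which passed with the replicate block (4.78, adjusted p = 0.0451). The untreated libraries themselves differed for these genes, with Hspa1a at 42.2 CPM in replicate 1 and 182 CPM in replicate 2. Of 17 integrated stress response genes 8 rose and 0 fell, and with NMMA 6 and 0, where scaling to the totals gave 2 and 2. Ddit3 rose by 1.99 (edgeR adjusted p = 0.00347) and 1.36 (edgeR adjusted p = 0.0261), and Atf3 by 4.80 (edgeR adjusted p = 3.19e-05) and 3.68 (edgeR adjusted p = 0.000374).

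More β-cell identity genes fell than rose. Against untreated cells 3 of 32 rose and 12 fell (median −0.39), where 6.99% of all genes rose and 5.77% fell. The remaining cells had 2 and 21 (median −1.09), and scaling to the totals gave 1 and 15 in members. With NMMA 3 rose and 8 fell, where 5.85% of all genes rose and 4.93% fell, and 1 and 16 with scaling to the totals. Mafa fell by 1.36 (edgeR adjusted p = 0.0027) in Gbp-low β-cells, where the value in the remaining cells was −4.02, and was at −0.16 with NMMA (edgeR adjusted p = 0.736). Slc2a2 fell by 1.61 (edgeR adjusted p = 0.00246), and with NMMA its difference was −0.80 (edgeR adjusted p = 0.119), where scaling to the totals let Mafa and Slc2a2 pass and the replicate block let Slc2a2 pass (−0.75, adjusted p = 0.0395). Ucn3 was at −0.25 (edgeR adjusted p = 0.582), and Trpm5 rose by 1.29 (edgeR adjusted p = 0.00161).

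The genes with the largest fitted decreases against untreated cells included some at 0 UMIs in members, whose bounds do not rank them. They were at least 5.76-fold lower for Dcun1d2, 5.55-fold for B4gat1, 4.78-fold for Gm32849 and 4.07-fold for Ttc17. With NMMA they were Rad50 (at least 5.43-fold), Rreb1 (5.27-fold), Ffar3 (4.25-fold), Ppcs (4.2-fold) and Agpat2 (4.02-fold).

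Members that were Hspa1-high differed from the other members in further genes. This split was made on measured values, so its levels are a description without a test, and the pooled cells behind each value are as few as 12. Each part was scaled with the TMM factor of the sum it belongs to. Mafa was at 342, 230, 247 and 380 CPM in Hspa1-high members and at 26.9, 96.3, 80.3 and 141 CPM in other members. Jun was at 534, 969, 2316 and 1281 CPM against 188, 110, 397 and 246 CPM. Both genes were higher in Hspa1-high members of every library. In β-cells without cytokines Mafa had the opposite order, at 223, 221, 174 and 126 CPM in Hspa1-high and 574, 446, 274 and 237 CPM in other β-cells of the untreated and NMMA libraries. Ddit3 was at 210, 247, 184 and 164 CPM in Hspa1-high and 51.3, 108, 99.9 and 106 CPM in other β-cells without cytokines. In members its order was mixed, at 327, 314, 134 and 157 CPM against 315, 474, 373 and 492 CPM.

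The study used NMMA to block nitric oxide formation, and the interaction asks whether the difference between Gbp-low and remaining β-cells changed with it. It passed for 389 of 10371 genes, 3.75%, with 259 more positive with NMMA and 130 more negative (2.5 and 1.25%, with 66.6% of calls positive, 17.0% with scaling to the totals). This number was 13 among β-cells of 10000 to 20000 UMIs and 52 without replicate 1 of the cytokine condition, 79 without its replicate 2 and 210 with all cells thinned to 10000 UMIs. The first of these settings changed depth, cell number and the genes tested together. Thinning also changed the members, to 57, 71, 35 and 50 cells, and the genes tested, to 8385. With the replicate as a block it was 455, while 9 of the 28 named genes that had passed lost the call, among them Hmox1, Jun and Cxcl10. Of 26 heat shock genes, 11 were more positive with NMMA and 0 more negative (5 and 1 with scaling to the totals). The interaction of Dnajb1 was 1.71 (−0.51, edgeR adjusted p = 0.934, among β-cells of 10000 to 20000 UMIs), where its level in the remaining cells was 143 and 107 CPM without and 53.8 and 40.7 CPM with NMMA. Of 32 β-cell identity genes 0 were more positive and 8 more negative, 13 with scaling to the totals. Mafa differed by −1.24 between conditions (−0.64, edgeR adjusted p = 0.653, among β-cells of 10000 to 20000 UMIs), its remaining-cell level being 30.1 and 30.0 CPM without and 68.3 and 87.8 CPM with NMMA. G6pc2 was at 133 and 118 CPM in members against 72.3 and 77.2 CPM in the remaining cells without NMMA. With NMMA it was at 67.8 and 121 against 269 and 348 CPM, a change of direction seen in both replicates. Its interaction passed under each of 12 alternatives, which did not test the direction within a condition.

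For the 13 IFN-γ signalling genes, the 10 immunity-related GTPases and the 18 antigen presentation genes, 0 passed the interaction in either direction with TMM scaling. Of all genes tested 3.75% passed, so 0 is near that share. In simulated data the interaction test found 3 of 100 changes of 2-fold and 44 of 100 of 4-fold. A count of 0 thus does not show that the differences were equal. Scaling to the totals made 5 antigen presentation genes more negative.

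**Figure D5:**
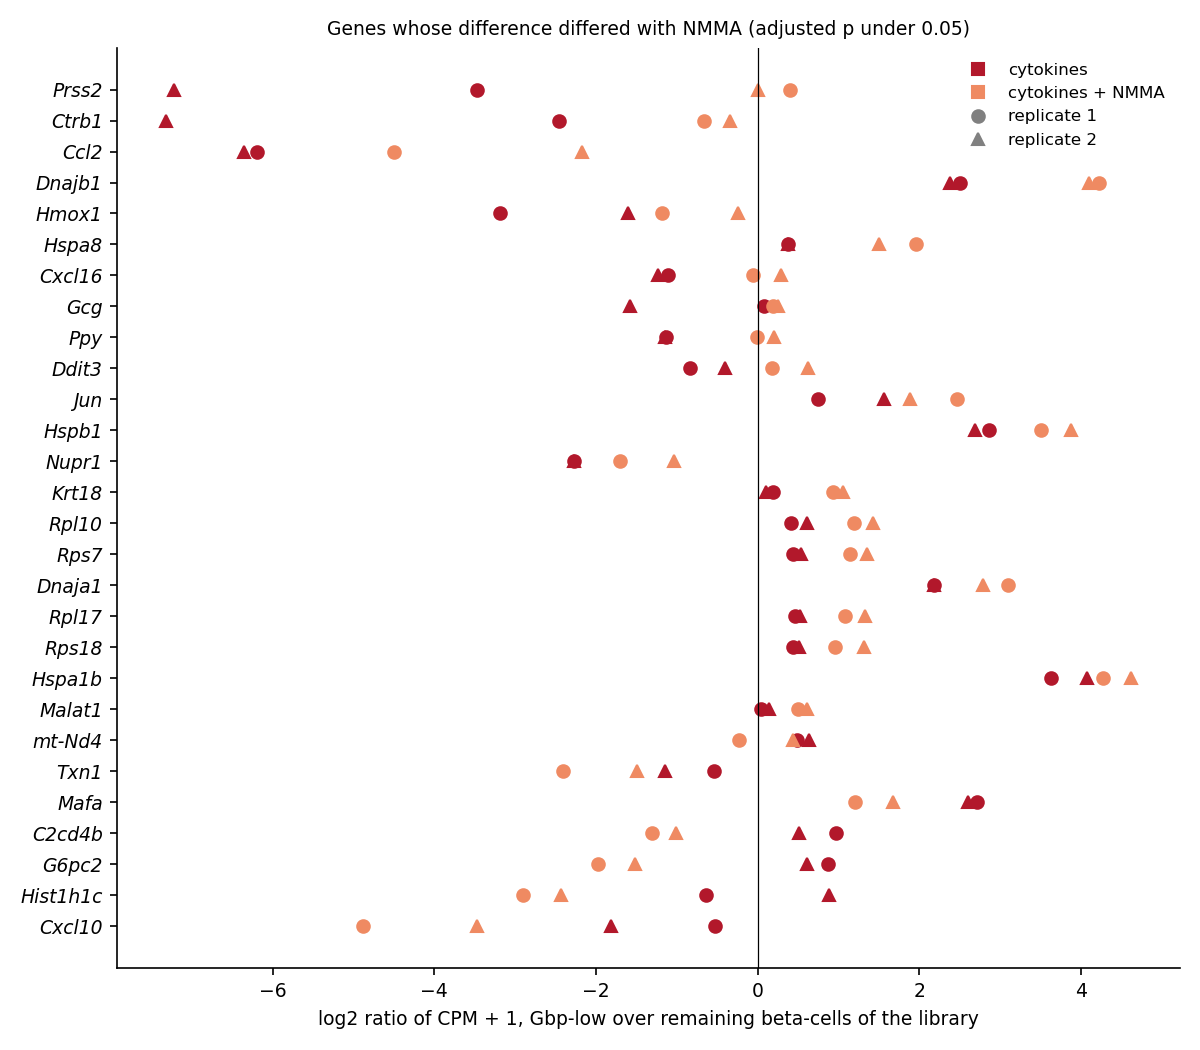
Log2 ratio of CPM plus 1 between Gbp-low and remaining β-cells of a library (horizontal axis) for 28 named genes whose difference changed with NMMA, each point a library without or with NMMA. G6pc2 lies above 0 without NMMA and below 0 with it in both replicates, while Mafa and Dnajb1 stay above 0 in all 4 libraries.

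Detection per cell was also compared, with each cell thinned to 10000 UMIs. Of 24 fixed genes, 20 differed in the same direction in all 4 libraries, for which the exact sign-flip test gives p = 0.13 (adjusted 0.15), the smallest that 4 libraries allow. These genes were chosen with earlier results known, and no share of all genes is available beside the count. At this depth members held fewer genes per cell (1978 against 2467), lower in 4 of 4 libraries. Oasl2, an antiviral gene, was seen in a mean of 5.39% of members and 52.4% of remaining cells, with 3.98, 4.98, 3.49 and 6.16% in β-cells of the untreated and NMMA libraries as the background. Hspa1a was seen in 81.7 against 32.6%, Mafa in 61.2 against 31.7%, Ucn3 in 43.9 against 14.0% and Slc2a2 in 20.3 against 7.50% of cells. For some genes the shares and the sums differed. Ddit3 was seen in 65.0 against 83.4% of cells, Jak1 in 41.5 against 57.5%, Jak2 in 16 against 28.7% and Ifngr1 in 7.97 against 15.5%. Each was lower in 4 of 4 libraries, while their summed levels with TMM scaling did not pass. Scaling to the totals called at least Ddit3 (−0.48, edgeR adjusted p = 0.0148) and Jak2 (−0.79, edgeR adjusted p = 0.0476) lower. Whether these shares fell more than the genes per cell did was not tested. Hspa8 was seen in 99.5 and 99.4%, while its summed level was higher.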

How the data were processed

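Single-cell RNA libraries of mouse islets, 1 per condition and replicate, were analysed. The authors deposited raw UMI counts per gene and barcode for each of the 8 libraries, made with Cell Ranger (3.0.0 in replicate 1 and 6.0.0 in replicate 2 by the file headers) on mm10 per the labels. The labels and the study's methods name different kit versions. The 30406 gene IDs listed in both replicates were used, of which 597 carry another symbol in the other list. No doublet caller was run.

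Counts were summed per library over Gbp-low and over remaining β-cells, and the 10 Gbp genes were left out of the sums. Sums of Gbp-low β-cells held 653042, 1086212, 478630 and 719767 UMIs, and those of the remaining cells 9849145 to 27716593, so the former limit the precision. Genes passing filterByExpr were tested with edgeR 4.0.16 (limma 3.58.1, R 4.3.3), with TMM scaling, the robust quasi-likelihood test and Benjamini-Hochberg adjustment over all genes tested at 0.05. The library was a block within cytokine libraries, and group means were fitted against β-cells without cytokines. Per-cell values used Python 3.11.15, numpy 2.4.6, scipy 1.17.1 and pandas 2.3.3 after thinning each cell to 10000 UMIs, and figures matplotlib 3.10.9. The scripts were tested on simulated data. Gene positions are from GENCODE vM21.

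A replicate number marks the pool of islets that was divided over the conditions, so it pairs samples. Deviations of same-numbered sums from the group means correlated at 0.137 to 0.752 over 6 pairs of groups and 11753 genes. The fit without the block was used as the study's methods name none, and the blocked fit was an alternative. Comparisons with β-cells without cytokines thus leave this pairing unused in the main fit. Others were DESeq2 1.42.0, scaling to total UMIs, no filter, thinned counts, β-cells of 10000 to 20000 UMIs and cells with 0 Gbp UMIs. Removal of barcodes shared between libraries and leaving out each library were alternatives too. With thinned counts, members were chosen again after thinning.

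Members, gene lists and tests were chosen with earlier results of these data known. Genes named are a fixed list of 24, the 10 largest called increases and decreases within libraries in the same direction in all 4, up to 4 of each list by adjusted p, the 5 smallest adjusted p of the interaction, the 5 largest called increases and decreases against β-cells without cytokines, and the 3 most abundant of each other cell type's markers. Genes outside this rule, among them B2m, Nfkbia, Nfkbiz, Rel, Rsad2, Hspa4, Foxa2, Chgb, Syt7 and Abcc8, were chosen after their values were seen. Some genes that the rule names are not reported here.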

Additional observations from a re-analysis of the deposited data

Results flagged for a closer look

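Within cytokine libraries 136 named genes were tested. For 28 of them, the difference between Gbp-low and remaining β-cells changed between cytokines alone and cytokines with NMMA. Of all 10371 genes tested, 389 (3.75%) did so. Some genes were named because their adjusted p of the interaction was among the smallest. The count of 28 is thus partly set by that choice and is not compared with the share of all genes. The test was the interaction term of edgeR's quasi-likelihood fit with Benjamini-Hochberg adjustment, and the values are the log2 difference with NMMA minus that without. They share the limits of the whole comparison, whose count of genes fell to 13 among β-cells of 10000 to 20000 UMIs. Of 26 named genes that could be tested there, 2 kept the call, G6pc2 and Hist1h1c. With the replicate block 9 of the 28 lost it, namely Hmox1 (adjusted p = 0.355), Nupr1 (0.484), Jun (0.526), Cxcl10 (0.116), Gcg (0.772), Ppy (0.757), Prss2 (0.927), Ctrb1 (0.94) and mt-Nd4 (0.0633).

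Among heat shock and stress genes the difference was more positive with NMMA for Dnajb1 (1.71), Hmox1 (1.57), Hspa8 (1.33), Ddit3 (0.996), Jun (0.972), Hspb1 (0.955), Nupr1 (0.900), Dnaja1 (0.735) and Hspa1b (0.583), and more negative for Txn1 (−1.06). Among β-cells of 10000 to 20000 UMIs the sign was opposite, without passing, for Dnajb1 (−0.51), Hspb1 (−0.88), Dnaja1 (−0.58) and Hspa1b (−0.78). The call of Hspa1b was lost in 9 of 12 alternatives, among them DESeq2 (adjusted p = 0.155), scaling to the totals (0.25, edgeR adjusted p = 0.32) and thinned counts (edgeR adjusted p = 0.768). Those of Hspb1, Dnaja1 and Nupr1 were lost in 7 of 12, those of Hmox1 and Txn1 in 6, of Jun in 5, of Ddit3 in 3 and of Dnajb1 and Hspa8 in 1. For Ddit3 the sums were below the remaining cells in both libraries without NMMA and above them in both with NMMA. Of the chemokines, Ccl2 differed by 3.17, Cxcl16 by 1.30 and Cxcl10 by −3.18. The call of Ccl2 was lost in 9 of 12 alternatives, among them DESeq2 (adjusted p = 0.137), scaling to the totals (edgeR adjusted p = 0.0599), no filter (edgeR adjusted p = 0.0664), cells with 0 Gbp UMIs (edgeR adjusted p = 0.89) and 3 of the 4 left-out libraries, and its sign turned with thinned counts (−1.21, edgeR adjusted p = 0.785). Cxcl16 lost its call in 6 of 11 and Cxcl10 in 4 of 12. Cxcl10 was at 1507 and 583 CPM in the remaining cells with NMMA and at 240 and 125 CPM without, and at 34.7 to 167 CPM in Gbp-low β-cells.

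In genes of the β-cell and its metabolism, Mafa differed by −1.24, G6pc2 by −2.47 and C2cd4b, a gene of the islet, by −1.94. The linker histone gene Hist1h1c differed by −3.08. The ribosomal protein genes Rpl10 (0.765), Rps7 (0.738), Rpl17 (0.681) and Rps18 (0.639) and the nuclear RNA Malat1 (0.432) were more positive, and mt-Nd4 (−0.488) more negative, with NMMA. The call of G6pc2 held in 12 of 12 alternatives, those of Hist1h1c and C2cd4b in 11 and of Mafa in 10, while those of Malat1 and mt-Nd4 were lost in 9, of Rps18 in 7, of Rpl17 in 5, of Rps7 in 4 and of Rpl10 in 3.

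Markers of other cells also differed. Krt18 (0.822), Gcg (1.28) and Ppy (1.26) were more positive with NMMA. The value of Gcg rests on cytokine replicate 2, where members were below the remaining cells (−1.58, against 0.07, 0.19 and 0.25 in the other libraries), and was 0.14 without it. The calls of Krt18, Gcg and Ppy were lost in 4, 6 and 8 of 12 alternatives. The acinar genes Prss2 and Ctrb1 (5.48) also passed and rest on 2 and 5 UMIs in Gbp-low β-cells. Prss2 had 0 UMIs in members of both replicates without NMMA, so its fitted value (13.3) is no measured size. The remaining cells of cytokine replicate 2 stood apart from the other libraries for both genes. Their calls were lost in 2 of 7 and 5 of 10 alternatives that could be fitted.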

How the results depend on the processing

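Within cytokine libraries, 0 of the genes that the rule named had a called value that changed sign where they could be tested (95 of 136 at 10000 to 20000 UMIs, 120 with thinned counts). Nfkbiz, outside the rule, went from 0.81 to −0.06 at 10000 to 20000 UMIs. The count of 2209 genes was 1291 among β-cells of 10000 to 20000 UMIs (686 higher, 605 lower of 4993 tested) and 1501 to 1844 when 1 library was left out. The replicate block gave 2591, and 1499 against untreated cells became 2426, the count it moved by over 1.5 times, with 1835 for 1266 with NMMA and 455 for 389 interactions. Of 132 named genes the block added 24 calls and removed 0 against untreated cells, and added 22 and removed 1 (Dnajb1) with NMMA. It removed 9 of 28 named interactions, and within cytokine libraries added 2 of 136 named calls (Irak2, mt-Nd4) and removed 3 (Prss2, Cela1, Ctrb1).

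The 389 interactions were 87 with DESeq2, 258 without a filter, 210 with thinned counts, 13 at 10000 to 20000 UMIs, 72 for cells with 0 Gbp UMIs and 52 to 398 without 1 library (52 without IL1B_IFNg replicate 1, 79 without its replicate 2, 194 without IL1B_IFNg_NMMA replicate 1). The 1499 against untreated cells were 2341 with scaling to the totals (382 higher, 1959 lower), 320 at 10000 to 20000 UMIs, 704 with 0 Gbp UMIs and 491 to 1783 without 1 library (IL1B_IFNg replicate 1 786, replicate 2 491, Untreated replicate 1 565, replicate 2 884). The 1266 with NMMA were 2724 (283 higher, 2441 lower), 406, 503 and 430 to 1283 (IL1B_IFNg_NMMA replicate 1 430, replicate 2 727, NMMA replicate 1 613, replicate 2 643). Settings with fewer cells or libraries hold fewer counts, and otherwise the cause was not tested.

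The difference of the Gbp-low share with NMMA was −0.768 points after thinning and −4.01 to 4.70 without 1 library (−4.01 without IL1B_IFNg replicate 1, −3.43 without IL1B_IFNg_NMMA replicate 2). The 20 fixed genes with 1 direction in all libraries were 19 to 21.

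Reversed interactions were Hspa1b (−0.78), Dnajb1 (−0.51), Hspb1 (−0.88) and Dnaja1 (−0.58) at 10000 to 20000 UMIs and Ccl2 (−1.21) with thinned counts. Against cells without cytokines, Hmox1 (−0.10 at 10000 to 20000 UMIs), Parp14 with NMMA (1.34 with thinned counts) and Gja6 with NMMA (−3.63 to 5.99 without 1 library, −3.63 without IL1B_IFNg_NMMA replicate 2) reversed, and the cause was not tested.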
